A study of Mus musculus with 6 samples.

Results

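Animal cells build cholesterol from acetyl-CoA through the mevalonate pathway, and 8 enzymes of that pathway are described here in a pair of mouse pluripotent cell lines: Hmgcs1, Mvk, Mvd, Idi1, Fdps, Fdft1, Sqle and Lss. The genes were chosen by symbol, and every probe that the platform annotation gives 1 of these symbols was taken. Of the 8 genes, 6 had a listed probe, 11 probes in all out of 45281 on the array, and Hmgcs1 and Fdft1 were not analysed here. After the detection filter described below, 4 of the 8 genes with 5 probes were among the 8652 genes tested. The working name of the set also speaks of uptake, but all 8 genes are enzymes of synthesis, so uptake genes are given separately.

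Gene expression was measured in total RNA on 1-colour Illumina bead arrays, 3 for each of the lines i2PS and E14TG2A. i2PS is a pluripotent line of BALB/c mice that was obtained from liver, where hepatocytes had been reprogrammed inside the animal. E14TG2A is an embryonic stem cell line of strain Sv129 that was derived from the inner cell mass of the blastocyst, was bought from ATCC and served as the reference. Both lines grew in DMEM on feeder fibroblasts from mouse embryos, with LIF, the cytokine that maintains mouse stem cells, and were then passaged 3 times on gelatin to free them of feeders. Each group is 1 line, so that strain, tissue of origin and reprogramming history cannot be told apart, and the p-values measure only the spread between the 3 cultures that the design calls biological replicates. In RNA from whole cultures, fewer cells expressing a gene and less RNA per cell cannot be told apart.

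The pathway begins with the joining of acetyl groups to HMG-CoA by Hmgcs1 and its reduction to mevalonate. Mevalonate is phosphorylated by Mvk and Pmvk and decarboxylated by Mvd to isopentenyl diphosphate, which Idi1 isomerises and Fdps condenses to farnesyl diphosphate, the branch point towards sterols and protein prenylation. Fdft1 and Sqle make squalene and its epoxide, and Lss closes the rings to lanosterol, which further enzymes turn into cholesterol. When membrane sterol is low, Scap carries the transcription factor encoded by Srebf2 to the Golgi, proteases including the Mbtps1 product release it, and it switches on most genes of the pathway.

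Mean signal per array was between 340 and 403 on 5 arrays and 228 on E14TG2A replicate 1. All 8 pluripotency markers were detected on every array, whereas 0 of 9 hepatocyte markers were detected on any. Of 8 fibroblast markers, 5 were detected on no array, namely Col1a2, Col3a1, Lum, Postn and Pdgfrb. Col1a1 was detected on 2 E14TG2A arrays and on 0 i2PS arrays, and 1 of 4 probes of Dcn on 1 i2PS array. The mean level of the fibroblast list was 4.45 to 4.54 in i2PS and 4.43 to 4.52 in E14TG2A (log2). Thy1, a surface protein of fibroblasts and other cells, was higher in i2PS by 0.84 ± 0.16 (log2, SE, limma adjusted p = 0.00268) at its brighter probe. Another Thy1 probe was detected on no array. The part of residual feeder cells in the results was not tested.

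Among the 4 tested synthesis genes, Fdps and Mvd were higher in i2PS cells, by 3.48-fold and 1.80-fold, and Sqle and Lss did not pass the test. Thus 2 of 4 were called higher, where 23.3% of all tested genes were, and 0 of 4 were called lower, where 20.4% of all tested genes were. With 4 genes, these counts describe the genes and do not set them apart from the rest of the array. Their median difference was 0.49 on the log2 scale, beside 0.0335 over all tested genes. All 4 were detected on all 6 arrays, so that none of them entered the test through 1 line only.

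**Figure D1:**
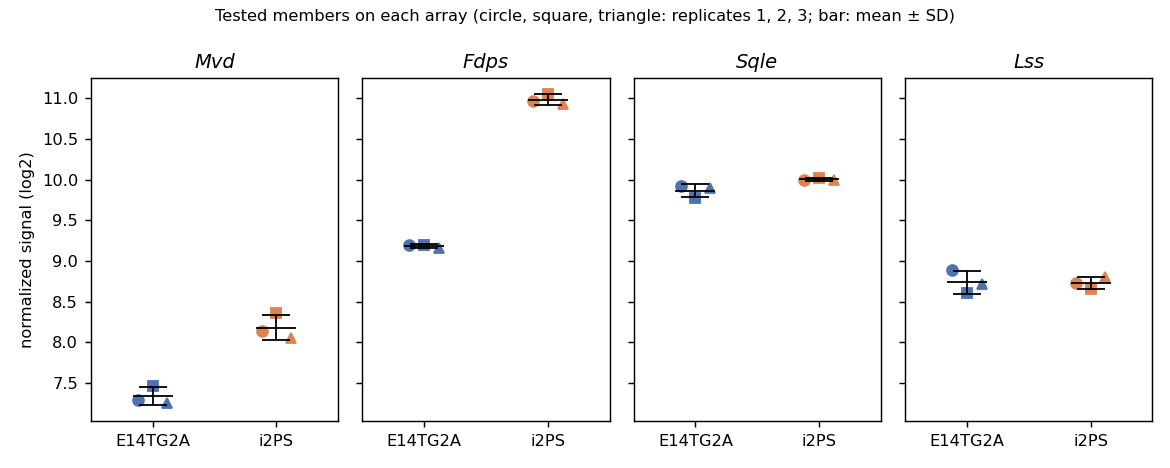
Normalised log2 signal of the 4 tested synthesis genes on each of 3 E14TG2A (blue) and 3 i2PS (orange) arrays, with circles, squares and triangles for replicates 1, 2 and 3 and bars for the mean ± SD. The i2PS arrays of Fdps lie between 10.93 and 11.05 and those of E14TG2A between 9.16 and 9.20, while the lines overlap for Lss.

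Promoter sequences bear on these genes because Srebf2 acts through the sterol regulatory element together with neighbouring CCAAT and GC boxes. Windows of 300 bases, running from 250 bases before to 50 bases after the gene start, were taken from RefSeq (GRCm38.p6) and were found for 5 of the 8 genes. Those of Mvd, which was higher in i2PS, and of Lss, which did not pass the test, are shown from 5′ to 3′ on the gene's strand, with CCAAT boxes (CCAAT or its complement ATTGG) and GC boxes (GGGCGG or CCGCCC) in capitals.
Mvd, chr8:122443373-122443672, minus strand: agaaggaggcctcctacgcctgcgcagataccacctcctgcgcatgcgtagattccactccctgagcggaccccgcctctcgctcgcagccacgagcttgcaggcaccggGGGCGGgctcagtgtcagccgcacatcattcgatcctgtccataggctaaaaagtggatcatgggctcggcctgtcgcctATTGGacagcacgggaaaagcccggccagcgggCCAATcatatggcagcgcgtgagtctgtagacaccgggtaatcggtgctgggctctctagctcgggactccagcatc
Lss, chr10:76531355-76531654, plus strand: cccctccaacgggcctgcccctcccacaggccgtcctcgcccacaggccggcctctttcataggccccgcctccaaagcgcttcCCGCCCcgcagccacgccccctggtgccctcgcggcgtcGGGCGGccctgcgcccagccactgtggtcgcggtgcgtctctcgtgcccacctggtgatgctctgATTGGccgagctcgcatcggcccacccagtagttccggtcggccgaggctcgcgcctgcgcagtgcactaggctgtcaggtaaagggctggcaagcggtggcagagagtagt
The window of Mvd held 2 CCAAT boxes, which began 60 and 27 bases before the start, and 1 GC box 140 bases before it. That of Lss held 1 CCAAT box 62 bases before the start and 2 GC boxes at 166 and 127 bases. No matches overlapped each other. Over 32851 promoter windows searched on both strands, a CCAAT box was present in 37.4% and a GC box in 35.7%, so that either is common in windows of this length.

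A core of the sterol regulatory element, written TCACNCCAC and searched on both strands, was present in 1.24% of all windows. Among the 5 windows of this set it was found in that of Hmgcs1, the first enzyme of the set, as TCACCCCAC beginning 137 bases before the start. Neither the window of Mvd nor that of Lss held these letters, nor did those of Mvk and Idi1. Variants of the core with other letters were not searched, so these windows are not shown to lack the element. The Mvk window held 5 CCAAT boxes, that of Hmgcs1 4 and that of Idi1 2. These matches describe letters in fixed windows and are no measure of binding. The windows of Fdps, Sqle and Fdft1 were not analysed here.

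Mvk, the kinase that phosphorylates mevalonate, was measured by 1 probe near background. Its deposited signals were 94.7, 109 and 122 in E14TG2A replicates 1 to 3 and 104, 117 and 111 in i2PS. It was detected, with a detection p under 0.01, on 2 arrays of each line, and it was therefore not among the tested genes. Without the detection filter, in a fit over all 34885 probes with 1 symbol, its difference was 0.043 ± 0.099 (log2, SE, limma adjusted p = 0.889). The signals of the lines overlapped, at a level where the array resolves little.

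Mvd, which decarboxylates mevalonate diphosphate to isopentenyl diphosphate, was detected on all arrays. Its deposited signals were 153, 267 and 280 in E14TG2A and 358, 426 and 347 in i2PS. After normalization its log2 values were 7.29, 7.46 and 7.25 in E14TG2A and 8.14, 8.36 and 8.05 in i2PS. Every i2PS array lay above every E14TG2A array, before and after normalization. The means were 7.33 ± 0.11 and 8.18 ± 0.16 (SD, n = 3 each). The difference of 0.85 ± 0.12 (log2, SE, 95% confidence interval 0.57 to 1.12) passed the test at a limma adjusted p of 6.1e-04. With arrays set to equal medians in place of quantile normalization, the difference was 1.01 and no longer passed (adjusted p = 0.0618), while only 4.13% of all genes were called higher there.

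Idi1, the isomerase that supplies the partner molecule for chain growth, was also near background. Its deposited signals were 89.8, 107 and 111 in E14TG2A and 101, 98.7 and 108 in i2PS, with a call of detection on 1 array of each line. The lines overlapped, and the difference without the filter had an SE of 0.15 on the log2 scale (limma adjusted p = 0.9996). Both enzymes on either side of it in the pathway, Mvd and Fdps, were measured well above background on all arrays.

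Fdps, which makes farnesyl diphosphate, had the largest difference of the 4 tested genes and the 23rd largest rise of all 8652. The deposited signals of its brighter probe were 362, 718 and 831 in E14TG2A and 2093, 2342 and 2102 in i2PS. Normalised log2 values were 9.20, 9.20 and 9.16 in E14TG2A and 10.97, 11.05 and 10.93 in i2PS. The lowest i2PS array thus lay far above the highest E14TG2A array, and the spread within each line was small (means 9.18 ± 0.023 and 10.98 ± 0.064, SD, n = 3 each). The difference was 1.80 ± 0.10 (log2, SE, 95% confidence interval 1.58 to 2.02, limma adjusted p = 4.98e-06). Under the 18 alternatives it stayed between 1.67 and 2.00 and passed in each.

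The other Fdps probe gave no detected signal. Its deposited values were 88.5, 98.6 and 96.9 in E14TG2A and 99.7, 110 and 99.9 in i2PS, and it was called detected on 0 of 6 arrays. Without the filter its difference was 0.32 ± 0.11 (log2, SE, limma adjusted p = 0.131), with 6.56% of all probes called higher in that fit. The Fdps result therefore rests on 1 probe. Whether a base difference between the BALB/c and Sv129 strains lies under either probe was not tested.

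**Figure D2:**
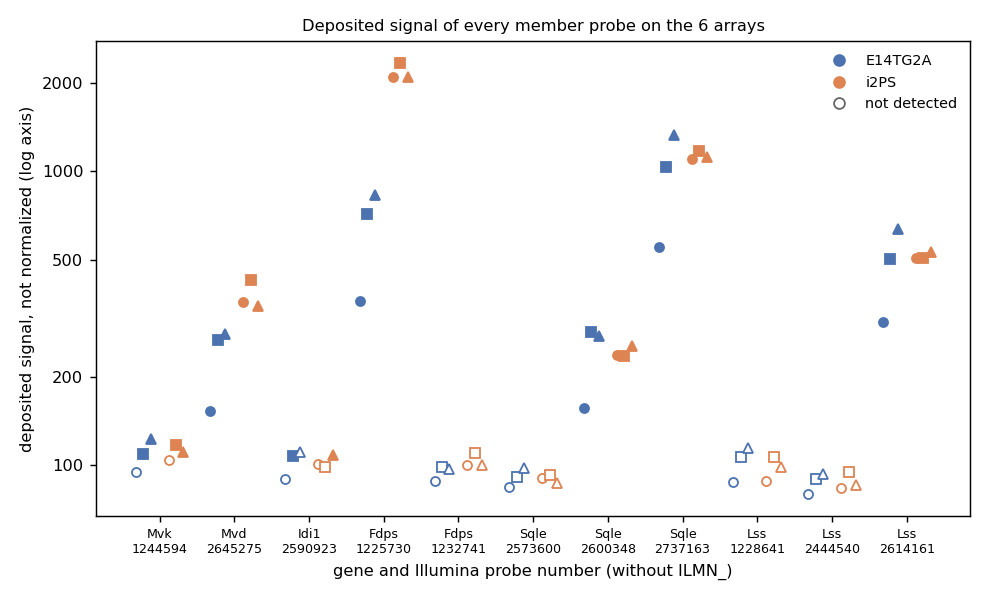
Deposited signal of all 11 probes of the 6 genes with a listed probe on each array, on a log axis, with filled symbols where the detection p was under 0.01 and open symbols elsewhere (E14TG2A blue, i2PS orange; circle, square and triangle for replicates 1, 2 and 3). In i2PS the brighter Fdps probe reads 2093 to 2342, whereas the other Fdps probe reads at most 110 on any array.

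Sqle, the epoxidase that carries out a rate-limiting oxygen-dependent step, was measured by 3 probes. For the brightest, the deposited signals were 554, 1034 and 1332 in E14TG2A and 1101, 1175 and 1124 in i2PS, with overlapping lines. Normalised log2 values were 9.93, 9.77 and 9.90 in E14TG2A and 9.99 to 10.02 in i2PS. After normalization all i2PS arrays thus lay above all E14TG2A arrays, by a narrow margin, and 30.2% of all tested genes were ordered in that way. The difference of 0.14 ± 0.10 (log2, SE, limma adjusted p = 0.286) did not pass, and its 95% confidence interval from -0.088 to 0.37 lay within 2-fold.

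The second kept Sqle probe read 7.35, 7.58 and 7.22 in E14TG2A and 7.31, 7.21 and 7.45 in i2PS, with overlapping lines. Its difference was -0.06 (log2, limma adjusted p = 0.734 over 12841 probes), so the 2 kept probes of Sqle differed in sign and neither passed. The third Sqle probe was detected on no array and read between 84.1 and 97.5. In the same fit over all kept probes, Mvd and the brighter Fdps probe passed and the Lss probe did not, hence 2 of the 5 kept probes of the set were called higher, where 21.7% of all kept probes were.

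Lss, which cyclises squalene epoxide to lanosterol, did not differ by more than its spread. Its log2 values were 8.89, 8.61 and 8.72 in E14TG2A and 8.73, 8.66 and 8.80 in i2PS, and the i2PS arrays lay inside the range of E14TG2A. The difference was -0.009 ± 0.11 (log2, SE, limma adjusted p = 0.957), with a 95% confidence interval from -0.26 to 0.25. Sqle and Lss were thus 2 of 4 genes with an interval within 2-fold, a property of 80.8% of all tested genes. The other Lss probes, 2 in number, were detected on no array, with signals of at most 114.

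The 4 genes did not share 1 difference between the lines. The 95% confidence intervals of Fdps and Mvd did not overlap each other, nor did either overlap those of Sqle and Lss. Around its line's mean Fdps varied least in E14TG2A (SD 0.023) and Sqle least in i2PS (SD 0.015), while Lss varied most in E14TG2A (SD 0.14) and Mvd most in i2PS (SD 0.16). On E14TG2A replicate 1, the dim array, Lss lay 0.15 above its line's mean and Mvd 0.042 below it (log2). Without that array the differences of Fdps and Mvd still passed the test.

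**Figure D3:**
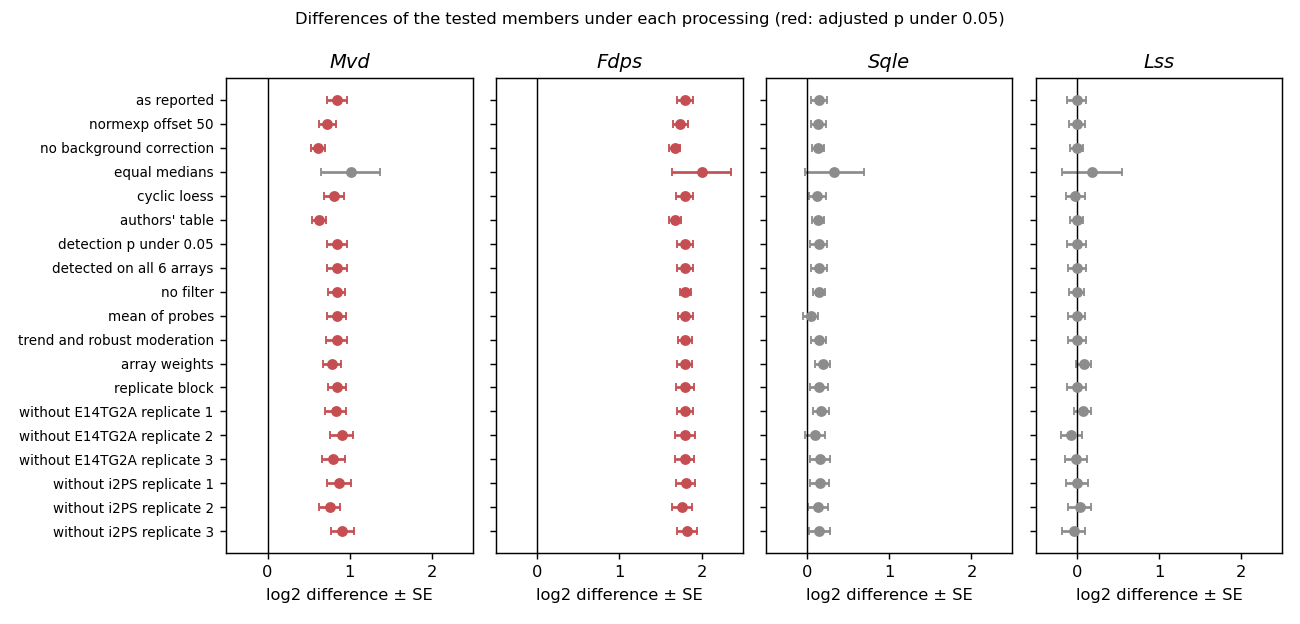
Log2 difference (i2PS minus E14TG2A) ± SE of Fdps, Mvd, Sqle and Lss as reported and under each alternative processing, with red points where the limma adjusted p was under 0.05. Fdps stays between 1.67 and 2.00 throughout, and Mvd is red under 17 of 18 alternatives.

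Of the other early steps, Pmvk, the kinase between Mvk and Mvd, was the 1 gene of 4 that was tested. Its log2 values were 6.45, 6.51 and 6.39 in E14TG2A and 6.93, 6.96 and 6.80 in i2PS. The lines did not overlap, and Pmvk was higher in i2PS by 0.45 ± 0.10 (log2, SE, limma adjusted p = 0.00764). Acat1, a thiolase that joins acetyl-CoA in mitochondria, was detected on no array.

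Of 10 genes for the late sterol steps, 7 were tested, and 3 of these were higher and 0 lower in i2PS (23.3% and 20.4% of all tested genes), with a median difference of 0.25. Cyp51, the lanosterol demethylase that acts just after Lss, was higher by 0.50 ± 0.13 (log2, SE, limma adjusted p = 0.0141). Lbr, a lamin receptor that also reduces the sterol ring, was higher by 0.44 ± 0.12 (adjusted p = 0.0176), and Msmo1, a sterol methyl oxidase, by 0.39 ± 0.11 (adjusted p = 0.0197). A second kept probe of Lbr, at 0.14, did not pass, and with the mean of its probes Lbr had an adjusted p of 0.071. These calls were close to the threshold: Cyp51 lost its call without i2PS replicate 2, Msmo1 without i2PS replicate 1 or 3, and Lbr without E14TG2A replicate 2 or without i2PS replicate 1 or 3, with adjusted p between 0.0511 and 0.0736.

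The 4 late genes that did not pass are named for their place in the pathway. Ebp, the sterol isomerase, differed by 0.25 ± 0.12 (log2, SE, limma adjusted p = 0.117), and it passed without E14TG2A replicate 2 (adjusted p = 0.0447). Dhcr7, the last reductase on the way to cholesterol, differed by 0.17 ± 0.25 and passed without E14TG2A replicate 1 (adjusted p = 0.0433). Its value on that array was 6.32, against 5.49 on E14TG2A replicate 3. Nsdhl and Hsd17b7, which remove methyl groups together with Msmo1, differed by -0.016 ± 0.11 and -0.20 ± 0.13, and their lines overlapped.

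A list of 7 regulatory genes held Srebf2, genes that act on its product, and Srebf1, the gene of a related factor. Of these 5 were tested, with 2 higher (23.3% of all tested genes), 0 lower (20.4%) and a median of 0.14. Mbtps1, the protease that makes the first cut in the Srebf2 product, was higher in i2PS by 0.65 ± 0.16 (log2, SE, limma adjusted p = 0.00866). The 3 of its 4 kept probes that were detected on all 6 arrays each passed. The fourth was detected in i2PS only, so that it entered the test through that line. Srebf2 itself was higher by 0.59 ± 0.18 (adjusted p = 0.0269). Its i2PS values of 7.41, 8.14 and 7.86 overlapped those of E14TG2A, which reached 7.43. A second kept Srebf2 probe also passed, at 0.63 ± 0.16, but the first lost its call without E14TG2A replicate 2 or 3 or i2PS replicate 2 or 3 (adjusted p 0.0762 to 0.1001).

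The remaining regulators, named for their role, did not pass. Scap, the escort of the factor, differed by 0.14 ± 0.13 (log2, SE). Insig1, which holds Scap back when sterol is high and is itself a target of the factor, differed by -0.044 ± 0.23, and Insig2 by -0.11 ± 0.13. Other kept probes had the opposite sign and did not pass either. They differed by 0.19 ± 0.14 and 0.078 ± 0.13 for Insig1 and by 0.31 ± 0.14 for Insig2. The deposited signals of the kept Insig1 probes were at most 143. At the probes that stood for the 3 genes the values of the lines overlapped, and Srebf1, the gene of the related factor, was detected on no array.

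Among 13 genes for uptake, transport and storage, 4 were detected on all 6 arrays, namely Npc1, Lipa, Stard4 and Npc2, and all 4 were called higher in i2PS, where 22.9% of all genes detected on all 6 arrays were. The remaining tested gene, Nr1h3, entered the test through i2PS only and is described apart. Npc1, which exports cholesterol from lysosomes, was higher by 0.64 ± 0.10 (log2, SE, limma adjusted p = 0.00109) at its brightest probe, whereas its other 2 kept probes differed by -0.10 each and did not pass. With the mean of its probes Npc1 differed by 0.15 (adjusted p = 0.245). Lipa, the lysosomal lipase that frees cholesterol from its esters, was higher by 0.49 ± 0.15 (adjusted p = 0.0285), but by 0.21 (adjusted p = 0.0533) with no background correction and by 0.22 (adjusted p = 0.0523) in the authors' normalized table, where the call was lost.

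Stard4, a carrier of cholesterol through the cytosol, was higher by 0.44 ± 0.15 (log2, SE, limma adjusted p = 0.0355). Npc2, the lysosomal partner of Npc1, was higher by 0.44 ± 0.14 (adjusted p = 0.0272) and is named to complete the list. At 1 probe, Nr1h3, a nuclear receptor for oxysterols, was detected on no E14TG2A array and on all 3 i2PS arrays. It therefore entered the test through i2PS only. Another Nr1h3 probe was detected on no array of either line, so the Nr1h3 result rests on 1 probe. At the detected probe the level was at least 1.40-fold higher in i2PS, against the lowest detected signal per array. This bound holds for the background correction used here only. The fitted difference of 0.92 (log2, limma adjusted p = 2.2e-04, which does not test the bound) was 0.45 with an offset of 50, 0.29 with no background correction and 0.29 in the authors' normalized table. The sterol exporters Abca1 and Abcg1, the lipoprotein receptor Scarb1 and the receptor ligase Mylip were detected on no array.

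Calls of the uptake genes were often lost when 1 array was left out, while the differences stayed positive. Lipa passed without E14TG2A replicate 1 and lost its call without any of the other 5 arrays (differences 0.35 to 0.54, adjusted p 0.0506 to 0.0984). Stard4 kept its call without E14TG2A replicate 3 or i2PS replicate 1 and lost it without any of the other 4 (differences 0.32 to 0.47, adjusted p 0.0551 to 0.138). With the replicate number as a block its adjusted p was 0.0524. Npc2 lost its call when E14TG2A replicate 3 or either of i2PS replicates 1 and 3 was left out (differences 0.33 to 0.49, adjusted p 0.0511 to 0.0939). With Nr1h3 included, the count of 5 fell to between 2 and 4 when 1 array was left out, with 2 without i2PS replicate 3, where 16.4% of all genes were called higher in place of 23.3%. Without the detection filter, 2 of 9 passed, where 9.24% of all genes did.

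**Figure D4:**
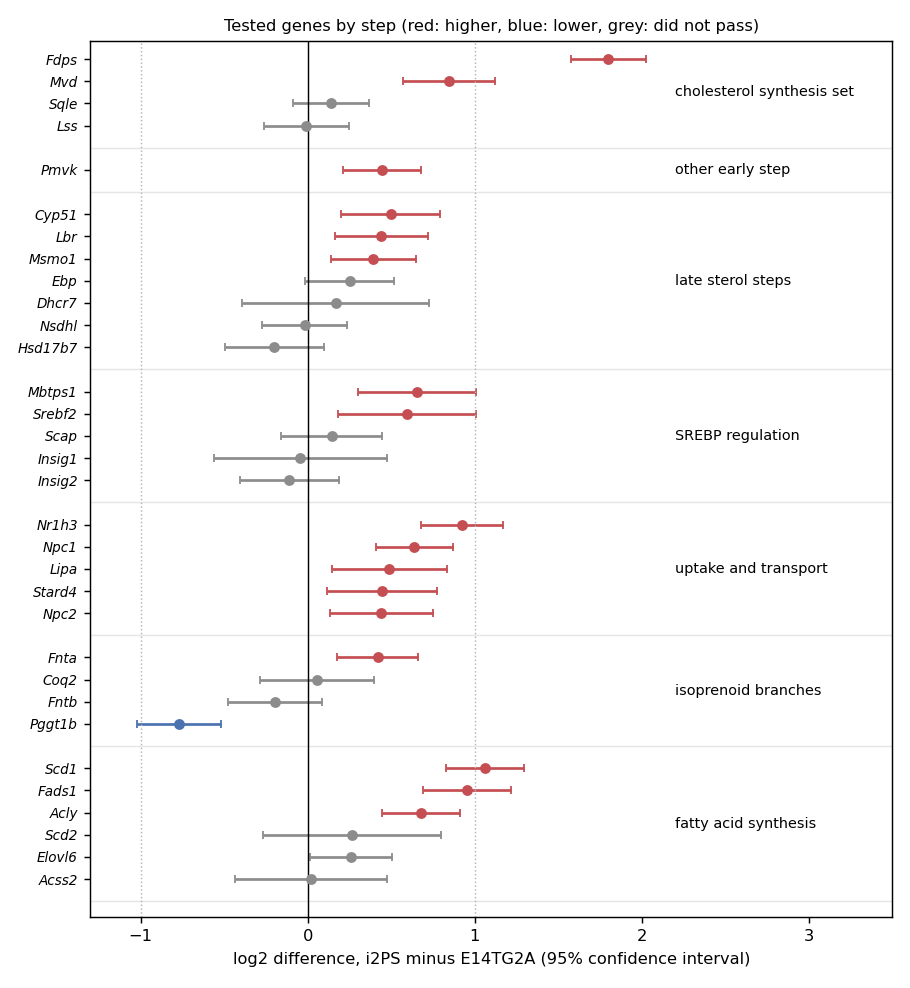
Log2 difference (i2PS minus E14TG2A) with its 95% confidence interval for the 4 tested synthesis genes and the tested genes of the 6 other lists, in red where higher, blue where lower and grey where the test was not passed, with dotted lines at -1 and 1. Fdps, at 1.80, lies farthest to the right, and Pggt1b, at -0.77, is the 1 gene called lower.

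Farnesyl diphosphate, the product of Fdps, also feeds protein prenylation and other isoprenoids. Of 8 genes on these branches 4 were tested, with 1 higher (23.3% of all tested genes), 1 lower (20.4%) and a median of -0.07. Pggt1b, the specific subunit of geranylgeranyl transferase, was lower in i2PS by 0.77 on the log2 scale, from 7.53 ± 0.12 to 6.76 ± 0.090 (SD, n = 3 each, limma adjusted p = 6.4e-04). Fnta, the subunit shared by the prenyl transferases, was higher by 0.42 ± 0.11 (log2, SE, adjusted p = 0.0129), and lost its call without i2PS replicate 2 (adjusted p = 0.0569) or 3 (adjusted p = 0.0571). A second Fnta probe, at 0.42 ± 0.20, did not pass.

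Fatty acid synthesis shares acetyl-CoA and SREBP control with sterol synthesis, and 6 of its 10 genes were tested. Of these 3 were higher and 0 lower in i2PS, beside 23.3% and 20.4% of all tested genes, with a median of 0.47. Scd1, the stearoyl-CoA desaturase, was higher by 1.06 ± 0.10 (log2, SE, limma adjusted p = 7.1e-05). Fads1, a desaturase of polyunsaturated fatty acids, was higher by 0.95 ± 0.12 (adjusted p = 2.7e-04), and Acly, which makes cytosolic acetyl-CoA from citrate, by 0.68 ± 0.10 (adjusted p = 8.7e-04). The calls of Scd1 and Fads1 held under all 18 alternatives. Elovl6 (0.26 ± 0.11), Scd2 (0.26 ± 0.24) and Acss2 (0.019 ± 0.20) did not pass. Acaca, Fasn and Me1 were detected on no array, so the list leaves fatty acid synthesis itself partly unmeasured.

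Over the 6 other lists together, 15 of 28 tested genes were called higher in i2PS (53.6%, against 23.3% of all tested genes). Of the 28, 1 was called lower, where 20.4% of all tested genes were. Of the 52 listed genes, 9 were not analysed here and 15 were not detected well enough to test. Among genes detected on all 6 arrays, which leaves out Nr1h3, 14 of 27 were called higher, where 22.9% of all such genes were. The lists were drawn up with results of these arrays known, so that this share is a description. The count of 15 fell to 8 of 28 without i2PS replicate 3, where 16.4% of all genes were called higher, and to 2 of 28, Scd1 and Fads1, with equal medians, where 4.13% were.

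Genes beside the 4 on their chromosomes were looked at in the order of the RefSeq gene table of GRCm38.p6, taking the 5 nearest tested genes on each side. Of all tested genes, 23.3% were called higher and 20.4% lower. Around Fdps on chromosome 3, 3 of 10 neighbours were higher and 2 lower, and their differences ran from -0.69 to 0.74 (log2). Around Mvd on chromosome 8, 1 of 10 was higher and 2 were lower, between -0.71 and 0.73. Around Sqle on chromosome 15, 0 of 10 were higher and 4 lower, and around Lss on chromosome 10, 1 of 10 was higher and 4 lower. With 10 neighbours each, these counts are a description.

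The mean profile of the 4 genes, centred per gene, ran from -0.37 to -0.30 on the E14TG2A arrays and from 0.32 to 0.39 on the i2PS arrays (log2). It averages unlike differences, 1.80 for Fdps, 0.85 for Mvd, 0.14 for Sqle and -0.009 for Lss, and so follows mainly Fdps and Mvd. The genes most like it over the 6 arrays were Slc6a8, a creatine transporter, with a Pearson r of 0.9997, then Tex19.1 (0.9994), Eif4e2 (0.9986), Cfap45 (0.998) and Smim19 (0.9978). Their differences between the lines lay between 0.68 and 1.14 on the log2 scale. The 6 points fall into 2 groups of arrays, and 1222 genes outside the set had an r of at least 0.9.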

How the data were processed

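Biotin-labelled total RNA of 3 i2PS and 3 E14TG2A cultures was hybridised to 1 array each. The authors deposited linear probe intensity values of 45281 probes, with GenomeStudio named in the submitters' processing notes and no version given. Array medians from 88.3 to 103.3 show that they were not normalized between arrays. A detection p-value, deposited beside each signal, places it among the negative controls with a step of 1 in 936. Another deposited table of intensity values, which its values show to be quantile normalized on the linear scale, served as an alternative.

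Signals were processed with neqc of limma 3.58.1 in R 4.3.3 (background from detection p-values, offset 16, quantile normalization, log2 values). The platform annotation gave 1 symbol to 34885 probes and several to 18, and it did not list 10378; 34807 named probes matched the RefSeq gene table and 0 symbols changed. Kept probes had 1 symbol and were detected (detection p under 0.01) on each array of 1 line or both, and the probe with the highest mean stood for a gene.

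Differences between lines were fitted by lmFit and eBayes over all tested genes, with a Benjamini-Hochberg threshold of 0.05. All differences are i2PS minus E14TG2A on the log2 scale with n = 3 per line, and adjusted p-values are limma's. The number of arrays limits the precision.

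The 8 genes, the lists and the naming rule were chosen with earlier results of these data known. The rule named the 8 genes, up to 4 of the largest differences past the threshold per list, and the 5 genes most like the mean profile. Genes named outside it were chosen after their values were seen. The alternatives were other background corrections, normalizations, filters, probe summaries and models, a block for the replicate number, and fits lacking 1 array each, 18 in all.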

Additional observations from a re-analysis of the deposited data

How the results depend on the processing

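Fdps was called higher under all 18 alternatives (1.67 to 2.00, and 1.77 to 1.83 with 1 array left out). Mvd was called higher under 17 (0.61 to 0.91, and 0.76 to 0.91 with 1 array left out). With equal medians Mvd differed by 1.01 and was not called. Thus 2 genes of the set were called under each alternative except equal medians, where 1 was. Equal medians moved the median of all genes from 0.0335 to 0.19 and called 357 genes higher and 277 lower, against 2018 and 1764. There 2 of the other pathway genes were called higher and 0 lower. With 1 array left out, 8 to 15 of them were higher, where 16.4% to 24.1% of all genes were. The 8 were those without i2PS replicate 3, the fit with 16.4%. In these fits 1 to 2 of them were lower, where between 1331 of 8716 genes (without i2PS replicate 3) and 2123 of 9033 (without E14TG2A replicate 1) were. With array weights 17 of 28 were higher and 2 lower, where 2534 and 2239 of 8652 genes were. Of the genes that did not pass, several changed sign while staying below the threshold except where given. The difference of Lss was 0.18 with equal medians and 0.076 with array weights (0.075 in the fit over probes), and -0.073 to 0.067 with 1 array left out. That of the second Sqle probe was 0.11 with equal medians and -0.14 to 0.035 with 1 array left out. For Nsdhl it was 0.11 and -0.096 to 0.035 in the same settings, and for Dhcr7 -0.014 to 0.48 with 1 array left out, passing without E14TG2A replicate 1 and also with array weights (adjusted p = 0.0388). For Insig1 it was 0.087 with equal medians, 0.074 with the mean of probes, 0.18 with array weights and -0.21 to 0.17 with 1 array left out, and for Insig2 0.068 with equal medians and 0.099 with the mean of probes. The causes were not tested. Arrays with the same replicate number did not deviate together (correlations 0.0089, -0.0467 and 0.0684), and 3 of 6 arrays correlated best with their own number. With the replicate block, 1927 genes were higher and 1688 lower, and Fdps (adjusted p = 6.52e-05) and Mvd (adjusted p = 0.00113) were the 2 called in the set. The planned block for the slide was not fitted, since no slide is given in the sources used here. Signal over background limits Mvk and Idi1.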
